A study of Anas platyrhynchos with 20 samples.

Results

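The genes described here are 10 markers of B and T lymphocytes, read in the liver and the breast muscle of ducks fed linseed oil or a control diet. They were taken by symbol from the genes-FPKM table of 25117 genes, in which 8 of the 10 carry the symbol itself (PTPRC, CD3E, CD4, CD79B, JCHAIN, LCK, PAX5 and IKZF1). The other 2 stand under a numbered locus name and were matched by their NCBI gene ID, CD3D as LOC101792606 and ZAP70 as LOC101798888. The birds were male Runzhou white-crested ducks (Anas platyrhynchos), labelled as day 28. The labels do not say from which start this day counts. In the study's methods the ducks were 28 days old when the trial diets began, and the feeding lasted 28 days, with tissues taken at its end. By those methods day 28 is not the age of the birds at sampling. The groups were HL (liver, basal diet with 2% linseed oil), CL (liver, basal diet with 2% duck oil), HM (breast muscle, the linseed oil diet) and CM (breast muscle, the duck oil diet), each of 5 libraries out of 20. Per the study's text, the 20 libraries came from 10 ducks, picked from a larger trial for a high share of n-3 fatty acids in the linseed oil birds and a low share in the control birds. The groups therefore differ in diet and in that selection, and the effects of these cannot be told apart. The sources used here do not say whether a liver and a muscle library with the same number come from the same duck.

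Lymphocytes carry the adaptive immune response. T cells recognise antigen through a receptor that signals by way of the CD3 chains, and B cells through a membrane immunoglobulin that signals by way of CD79. A plasma cell is a B cell that has turned to secreting antibody. The liver holds resident and passing lymphocytes in its sinusoids, next to the macrophages that line them, and takes part in the transport of polymeric antibody into bile in birds. Skeletal muscle at rest holds few lymphocytes, mostly in its vessels and connective tissue.

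In these libraries JCHAIN, which encodes the joining chain that links polymeric IgM and IgA and is made by plasma cells, was the member with the highest level in every liver library. No member passed the test between the diets in either tissue. In the breast muscle CD3E, CD3D and PTPRC were each higher in HM than in CM at an unadjusted p below 0.05, and in the liver PTPRC was higher in HL than in CL at that level, but none passed after adjustment over all genes. Between the tissues, all 10 members had a higher mean in the liver under both diets in the values as deposited, but when the libraries were scaled to their total fragments the means of CD3D in HL and of IKZF1 and CD79B in CL were no longer higher than in muscle, and of the members only JCHAIN was called.

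The levels are FPKM values, that is, fragments per kilobase of gene length scaled by a factor for each library, so that genes can be compared with each other. The deposited factors are those of median-of-ratios scaling, which sets the typical gene level between libraries, and not the library totals. They ranged over 0.664 to 0.993 in the liver and 1.05 to 1.43 in muscle, although the muscle libraries held fewer fragments. In the liver, over HL and CL together, JCHAIN averaged 36.9 ± 22.4 FPKM (SD, n = 10 libraries), which put it at the 91.5th percentile of the 18356 genes with a mean above 0. CD3D, a signalling chain of the T cell receptor complex, followed at 5.22 ± 1.61 FPKM. PTPRC, the tyrosine phosphatase CD45 on all leukocytes, averaged 4.37 ± 2.07 FPKM in the same libraries. JCHAIN exceeded CD3D in 10 of 10 liver libraries and their ranges did not overlap, while CD3D and PTPRC, with CD3D above in 6 of 10, were not ordered beyond their spread. CD3E, another CD3 chain, averaged 1.60 ± 0.578 FPKM in the liver. IKZF1, which encodes the lymphoid transcription factor Ikaros, averaged 1.21 ± 0.630 FPKM there.

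The other 5 members were low in the liver, with mean levels of 0.390 FPKM for LCK, 0.370 for ZAP70, 0.353 for CD4, 0.301 for CD79B and 0.134 for PAX5. LCK and ZAP70 are the kinases that carry the T cell receptor signal, CD4 is the coreceptor of helper T cells, CD79B is a signalling chain of the B cell receptor and PAX5 is the transcription factor that sets B cell identity. LCK, ZAP70, CD4 and CD79B could not be ordered, since each exceeded the next in only 4 to 6 of the 10 liver libraries. At this depth LCK rested on 3 to 31 fragments per liver library and CD4 on 3 to 23.

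In the breast muscle the order at the top was less clear. JCHAIN averaged 2.35 ± 1.23 FPKM (SD, n = 10 libraries, HM and CM together), CD3D 2.29 ± 2.14 FPKM and PTPRC 1.80 ± 0.666 FPKM. Within HM the mean was highest for CD3D (3.40 FPKM), before PTPRC (2.20 FPKM) and JCHAIN (1.87 FPKM), and within CM for JCHAIN (2.84 FPKM), before PTPRC (1.40 FPKM) and CD3D (1.18 FPKM). JCHAIN exceeded CD3D in only 4 of 10 muscle libraries and CD3D exceeded PTPRC in 5 of 10, so these 3 genes were not ordered beyond their spread. CD3E averaged 0.626 FPKM and IKZF1 0.503 FPKM in muscle, and the other 5 members lay between 0.0195 FPKM (PAX5) and 0.158 FPKM (LCK). PAX5 and CD4 each rested on 31 fragments over all 10 muscle libraries, so that their values there are close to the detection limit.

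CD3E and CD3D are neighbours in the genome. In the coordinates of the table, which follow the ZJU1.0 assembly to which the reads were mapped, CD3E spans bases 6914154 to 6924739 on the plus strand and CD3D bases 6926792 to 6929261 on the minus strand of the same sequence, 2052 bases apart and with their ends facing each other. All 10 members are protein-coding genes and lie on 9 sequences of that assembly. CD3D was above CD3E in 20 of 20 libraries. The 2 gene models do not overlap, and the sources used here do not give the strand setting of the counting.

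**Figure D1:**
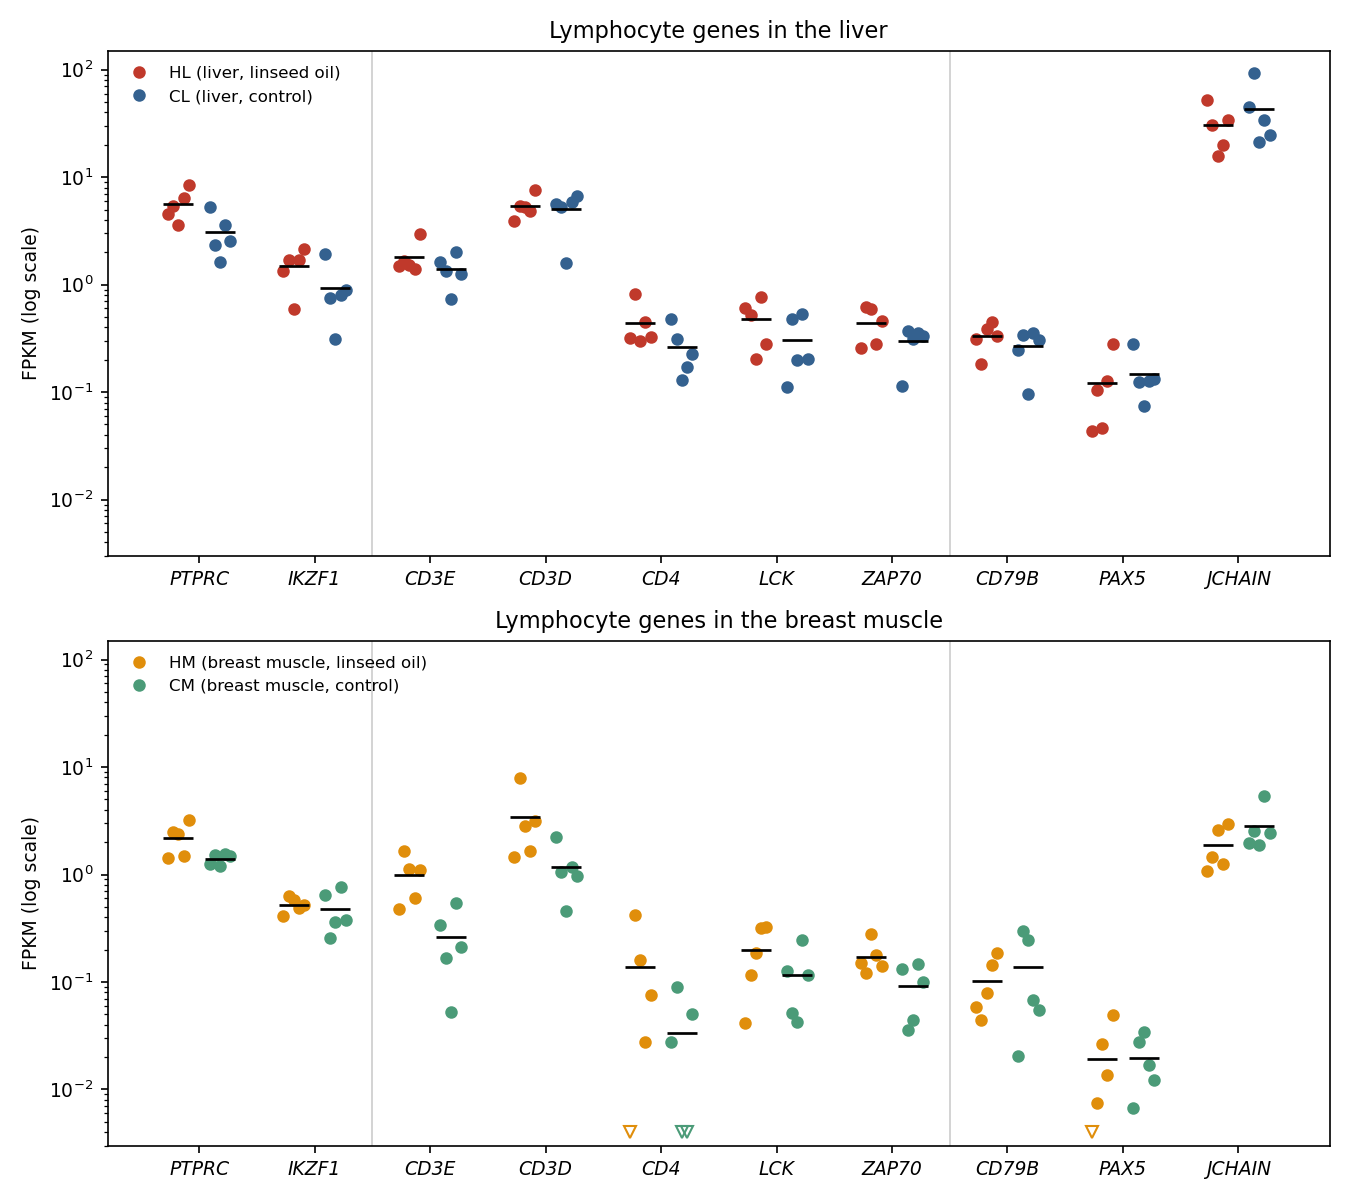
FPKM of the 10 lymphocyte genes on a log axis, liver above (HL left, CL right of each pair) and breast muscle below (HM left, CM right). Each point is 1 library, each bar the group mean of 5 libraries, and an open triangle marks a library at 0. Grey lines separate genes shared by lymphocytes, T cell genes and B cell genes. JCHAIN lies between 15.7 and 92.1 FPKM in the liver and between 1.08 and 5.37 FPKM in muscle.

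The question of the diet comparison in the liver was whether linseed oil feeding moved these genes in HL relative to CL. A gene was called when its Benjamini-Hochberg adjusted p in limma, over all genes of the fit, was below 0.05 and its log2 fold change was above 1 or below -1. Of 9548 genes tested 12 were called in HL vs. CL (0.126%), and 0 of the 10 members. The study reported more changed liver genes than this at the same thresholds, with its own DESeq2 test. At an unadjusted p below 0.05 there was 1 member, PTPRC, against 1178 of all genes (12.3%), of which 661 were higher in HL (6.92%) and 517 lower (5.41%). Fold changes are on the log2(FPKM + 1) scale, which understates the change of genes near or below 1 FPKM. Of the 10 members, 5 reached the filter of at least 1 FPKM in at least 5 of the 10 liver libraries (PTPRC, CD3E, CD3D, JCHAIN and IKZF1) and the other 5 were added to the fit below it.

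PTPRC, present on lymphocytes and on all other leukocytes, read 4.58, 5.37, 3.57, 6.36 and 8.43 FPKM in HL 1 to HL 5, against 5.30, 2.33, 1.62, 3.56 and 2.57 FPKM in CL 1 to CL 5. The groups overlapped through CL 1, and 3 of the 5 HL libraries lay above every CL library. The mean was 5.66 ± 1.85 FPKM in HL and 3.08 ± 1.43 FPKM in CL (SD, n = 5 each). The log2 fold change was 0.73 (SE 0.252), with an unadjusted limma p of 0.0136 and an adjusted p of 0.256. Without CL 1 it was 0.91 (adjusted p = 0.0590), and without CL 3, which had the lowest PTPRC, it was 0.59 (adjusted p = 0.441).

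Markers of other cell types differed between these livers as well, in both directions. Of 20 listed macrophage markers 16 were matched and 14 tested, and 11 of the 14 were higher in HL at an unadjusted p below 0.05 (MRC1, the mannose receptor, was called, with 50.9 FPKM in HL and 12.9 FPKM in CL, adjusted p = 0.00653). Their summed level ranged over 495 to 1453 FPKM in HL and 427 to 668 FPKM in CL. Of 15 matched endothelial markers 12 were tested, and 11 were higher in HL at that level, with the junction protein CDH5 (12.6 FPKM in HL, 4.39 FPKM in CL, adjusted p = 0.0134) and the sinusoidal scavenger receptor STAB2 (6.73 and 1.60 FPKM, adjusted p = 0.0480) called. Their summed level ranged over 115 to 152 FPKM in HL and 31.1 to 94.2 FPKM in CL. No marker of these 2 lists was at 0 in a whole liver group. The macrophage marker LYZ, lysozyme, was lower in HL (3.13 FPKM in HL, 5.50 FPKM in CL), with an unadjusted limma p of 0.0492 and an adjusted p of 0.403. Of 10 hepatocyte markers 9 had a fold change below 0, and TTR, AHSG and AMBP were lower in HL at an unadjusted p below 0.05. Of 3 matched red blood cell markers 1 was lower in HL at that level, and their summed level ranged over 84.9 to 176 FPKM in HL and 85.6 to 525 FPKM in CL. With libraries scaled to total fragments, 0 macrophage, 0 red blood cell and 1 hepatocyte marker were lower in HL at that level. On that scaling 12 macrophage and 11 endothelial markers were higher. PTPRC is expressed by macrophages as well, and the part of these cells in its difference was not tested. In bulk tissue a change in the number of cells of a type and a change in RNA per cell cannot be told apart.

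IKZF1 read 1.34, 1.69, 0.588, 1.69 and 2.15 FPKM in HL 1 to HL 5, against 1.94, 0.751, 0.309, 0.802 and 0.886 FPKM in CL 1 to CL 5. Its groups overlapped, with HL 3 low and CL 1 high. The mean was 1.49 ± 0.581 FPKM in HL and 0.937 ± 0.602 FPKM in CL, which is 0.38 on the log2 scale (SE 0.231, adjusted p = 0.551). Without CL 3 it was 0.25.

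The groups of each T cell gene overlapped in the liver. CD3E averaged 1.80 ± 0.650 FPKM in HL and 1.39 ± 0.472 FPKM in CL (log2 fold change 0.23, SE 0.185, adjusted p = 0.669), which became 0.096 without HL 5 and 0.12 without CL 3. CD3D averaged 5.42 ± 1.35 FPKM in HL and 5.01 ± 1.98 FPKM in CL, and its log2 fold change of 0.16 (SE 0.279, adjusted p = 0.849) was -0.12 without CL 3, a library with 1.58 FPKM where the other 4 CL libraries had at least 5.31 FPKM, and 0.053 without HL 5. Neither difference exceeded the spread between libraries. CD4 averaged 0.442 FPKM in HL and 0.264 FPKM in CL, LCK 0.475 FPKM in HL and 0.305 FPKM in CL, and ZAP70 0.442 FPKM in HL and 0.297 FPKM in CL. All 3 means were higher in HL, but the groups overlapped in each and the adjusted p values were 0.627, 0.697 and 0.691.

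The B cell genes gave no common direction in the liver. JCHAIN read 51.9, 30.4, 15.7, 19.99 and 34.2 FPKM in HL 1 to HL 5, against 44.6, 92.1, 21.3, 33.9 and 24.6 FPKM in CL 1 to CL 5. Its mean was 30.4 ± 14.1 FPKM in HL and 43.3 ± 28.8 FPKM in CL, with overlapping groups and a log2 fold change of -0.41 (SE 0.403, adjusted p = 0.731). The log2 fold change was -0.089 without CL 2, -0.21 without HL 3 and -0.62 without HL 1. CD79B averaged 0.332 ± 0.0983 FPKM in HL and 0.270 ± 0.106 FPKM in CL (log2 fold change 0.07, adjusted p = 0.847). PAX5 averaged 0.121 ± 0.0970 FPKM in HL and 0.148 ± 0.0789 FPKM in CL (log2 fold change -0.04, adjusted p = 0.923).

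The same question was asked of the breast muscle, HM against CM. No gene of 10155 tested was called in HM vs. CM (0%), so 0 of the 10 members were. The study's own DESeq2 test, at the same thresholds, did report genes changed in breast muscle. The 0 therefore belongs to the limma test used here and does not show that the diet changed no gene. At an unadjusted p below 0.05 in limma there were 558 genes (5.49%) and 3 of the 10 members, all 3 higher in HM, where 249 of all genes were (2.45%). Limma with voom weights on the fragments recovered from the FPKM steps called 0 genes as well. Of the 10 members, PTPRC, CD3D and JCHAIN reached the filter in muscle.

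CD3E gave the smallest unadjusted p of the members. It read 0.476, 1.64, 1.13, 0.599 and 1.10 FPKM in HM 1 to HM 5, against 0.336, 0.167, 0.0522, 0.540 and 0.212 FPKM in CM 1 to CM 5. Of the HM libraries 4 lay above every CM library, and HM 1 lay below CM 4. The mean was 0.991 ± 0.469 FPKM in HM and 0.262 ± 0.186 FPKM in CM (SD, n = 5 each), a ratio of means of 3.79, read from 192 fragments in HM and 57 in CM. The log2 fold change was 0.64 (SE 0.172), with an unadjusted limma p of 0.00305 and an adjusted p of 0.610. With voom it was 2.03 (SE 0.558, unadjusted p = 0.00318, adjusted p = 0.657).

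CD3D, the neighbour of CD3E and part of the same receptor complex, showed the same direction. It read 1.47, 7.88, 2.84, 1.64 and 3.16 FPKM in HM 1 to HM 5, against 2.25, 1.04, 0.453, 1.17 and 0.970 FPKM in CM 1 to CM 5. The groups overlapped, since CM 1 exceeded HM 1 and HM 4. The mean was 3.40 ± 2.61 FPKM in HM and 1.18 ± 0.658 FPKM in CM, with a log2 fold change of 0.90 (SE 0.324), an unadjusted limma p of 0.0173 and an adjusted p of 0.752.

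PTPRC read 1.41, 2.50, 2.39, 1.48 and 3.21 FPKM in HM 1 to HM 5, against 1.26, 1.52, 1.19, 1.54 and 1.49 FPKM in CM 1 to CM 5. The CM libraries lay close together, and 3 of the HM libraries lay above all of them. The log2 fold change was 0.38 (SE 0.161), with an unadjusted limma p of 0.0352 and an adjusted p of 0.843. With 1 library left out, it missed an unadjusted p below 0.05 in 5 of 10 fits (without HM 2, HM 3, HM 5, CM 1 or CM 3). The smallest log2 fold change was 0.28, without HM 5, with an unadjusted limma p of 0.0912 and an adjusted p of 0.9997. With libraries scaled to total fragments it was 0.35, with an unadjusted limma p of 0.0971 and an adjusted p of 0.830.

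HM 2, the library with the highest CD3E and CD3D of its group, stood apart in red blood cell markers. The summed level of the 3 matched red blood cell markers, of 16 listed, was 5457 FPKM in HM 2 and 179 to 364 FPKM in the other HM libraries, against 337 to 650 FPKM in CM. Without HM 2 the log2 fold change was 0.53 for CD3E (unadjusted p = 0.00643), 0.60 for CD3D (unadjusted p = 0.0262) and 0.34 for PTPRC (unadjusted p = 0.0643), all from limma. The adjusted p values were then 0.222, 0.315 and 0.404. CD3E and CD3D kept an unadjusted p below 0.05 in each of the 10 fits with 1 library left out. The summed level of the 16 matched macrophage markers was 195 to 411 FPKM in HM and 211 to 307 FPKM in CM, and 0 of the 13 tested reached an unadjusted p below 0.05.

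The remaining members in muscle did not reach an unadjusted p below 0.05. JCHAIN read 1.08, 1.44, 2.62, 1.26 and 2.97 FPKM in HM 1 to HM 5, against 1.95, 2.56, 1.87, 5.37 and 2.42 FPKM in CM 1 to CM 5. Its mean was thus lower in HM, 1.87 ± 0.861 FPKM against 2.84 ± 1.45 FPKM in CM, with a log2 fold change of -0.40 (SE 0.249, adjusted p = 0.920), which was -0.20 without CM 4. The kinases LCK (0.198 FPKM in HM, 0.117 FPKM in CM) and ZAP70 (0.173 FPKM in HM, 0.0916 FPKM in CM) had adjusted p values of 0.988 and 0.970. CD4 was read from 24 fragments in HM and 7 in CM, with 1 HM library and 2 CM libraries at 0 (adjusted p = 0.969). CD79B averaged 0.102 FPKM in HM and 0.137 FPKM in CM, PAX5 0.0194 FPKM in HM and 0.0195 FPKM in CM, and IKZF1 0.526 FPKM in HM and 0.480 FPKM in CM, and the groups of all 3 overlapped.

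**Figure D2:**
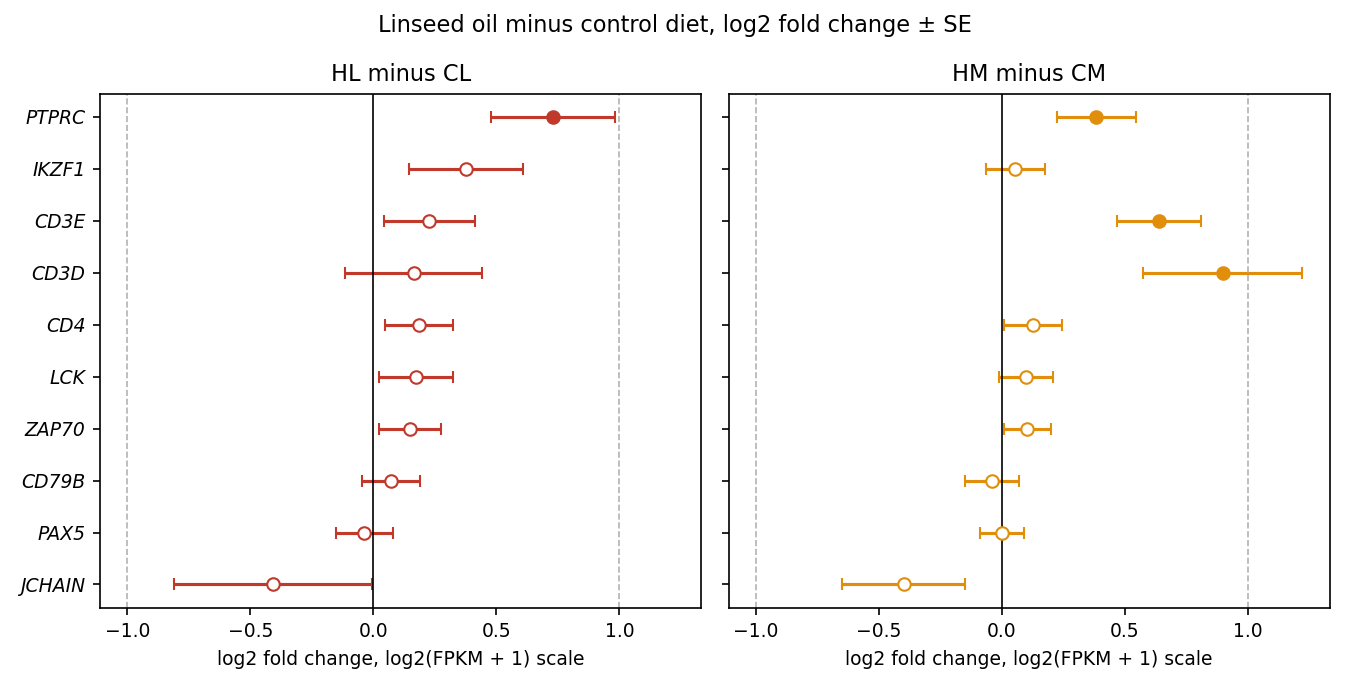
Log2 fold change between the diets on the log2(FPKM + 1) scale for each member, HL minus CL on the left and HM minus CM on the right, with the standard error from limma as bars. Filled points have an unadjusted p below 0.05 (PTPRC in the liver, PTPRC, CD3E and CD3D in muscle), open points do not, and dashed lines mark a log2 fold change of 1 and -1. No point reaches a dashed line.

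Whether the diet difference itself differed between the tissues was tested with an interaction term over all 20 libraries. Of 11261 genes 1 was called (0.00888%) and 0 of the 10 members. At an unadjusted p below 0.05 there were 913 genes (8.11%) and again 0 members. The diet difference was smaller in the liver than in muscle for CD3E and for CD3D. The interaction was -0.41 for CD3E (SE 0.257), with an unadjusted limma p of 0.124 and an adjusted p of 0.743. It was -0.73 for CD3D (SE 0.451), with an unadjusted limma p of 0.119 and an adjusted p of 0.739. For PTPRC it was 0.35 (SE 0.309), with an adjusted p of 0.862. The larger CD3E and CD3D differences in muscle are therefore not shown to be particular to muscle. With voom the CD3E interaction was -1.69 with an unadjusted p of 0.0144 and an adjusted p of 0.542.

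The liver was then compared with the breast muscle within each diet, which asks where these genes stand higher relative to the typical gene of the tissue, as the deposited scaling sets it. In HL vs. HM 2 of the 10 members were called, PTPRC and JCHAIN, both higher in the liver, against 2069 of 10455 genes (19.8%) called higher in the liver. In CL vs. CM there were again 2, CD3D and JCHAIN, against 2145 of 10536 genes (20.4%). These shares are close to the background. Of the members 4 reached the filter in HL vs. HM (PTPRC, CD3E, CD3D and JCHAIN) and 3 in CL vs. CM (PTPRC, CD3D and JCHAIN). The others were added to the fits below it, while all other genes behind the shares passed it. Without the fold threshold, 7 members had an adjusted p below 0.05 in HL vs. HM (32.4% of all genes, higher in the liver) and 6 in CL vs. CM (33.4%). Below the filter among them were IKZF1, CD4, ZAP70 and CD79B in HL vs. HM, and CD3E, CD4 and ZAP70 in CL vs. CM. The groups did not overlap, liver above muscle, for 2 members in HL vs. HM (26.6% of all genes) and for 5 in CL vs. CM (27.7%). All 10 members had a fold change above 0 in both comparisons, which use separate libraries, but IKZF1 became -0.033 in CL vs. CM when the libraries were scaled to total fragments.

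The tissue comparison depended on the scaling of the libraries. Scaled to the total fragments of each library, an alternative chosen after the data were seen, all genes had a median log2 fold change of -0.59 in HL vs. HM, against 0.01 as deposited, and of -0.79 in CL vs. CM, against 0.02. JCHAIN was then the 1 member called in each comparison. Its log2 fold change was 2.80 for the linseed oil diet (SE 0.323, adjusted p = 4.16e-06) and 2.53 for the control diet (SE 0.374, adjusted p = 4.59e-05). PTPRC had 0.50 for the linseed oil diet (adjusted p = 0.0745) and 0.033 for the control diet (adjusted p = 0.881). CD3E and CD3D kept an adjusted p below 0.05 in CL vs. CM, with log2 fold changes of 0.54 and 0.76. In HL vs. HM they had 0.097 (adjusted p = 0.647) and 0.12 (adjusted p = 0.715). CD4, ZAP70, CD79B and IKZF1 had an adjusted p below 0.05 in HL vs. HM as deposited. With total fragments it was 0.159, 0.188 for CD79B, 0.292 for ZAP70 and 0.0715 for IKZF1, the first being CD4. In CL vs. CM it became 0.0870 for CD4 and 0.297 for ZAP70. In CPM, the fragments of a gene scaled to the total of its library, IKZF1 averaged 3.98 ± 2.19 in CL and 4.15 ± 1.84 in CM (SD, n = 5 each). CD79B averaged 0.583 ± 0.269 CPM in CL and 0.593 ± 0.557 in CM, and CD3D 4.62 ± 0.865 in HL and 4.65 ± 3.02 in HM.

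Voom works on log2 fragments with weights, another filter and the deposited scaling, and it gave other counts. It called 7 members higher in the liver in HL vs. HM, against 21.9% of all genes, and 8 in CL vs. CM, against 21.9% of all genes there. In HL vs. HM these were PTPRC, IKZF1, CD4, ZAP70, CD79B, PAX5 and JCHAIN, and in CL vs. CM PTPRC, CD3E, CD3D, CD4, LCK, ZAP70, PAX5 and JCHAIN. Members below the voom filter were added to its fit. Of those called, these were CD4 and PAX5 in HL vs. HM, and CD4, LCK, ZAP70 and PAX5 in CL vs. CM. The other genes behind the 21.9% all passed that filter, so the member counts and these shares are not like for like.

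JCHAIN showed the largest tissue difference of the members on both scalings. The ratio of its means was 16.3 for HL over HM and 15.3 for CL over CM, and every liver library exceeded every muscle library of its diet. Scaled to library totals, JCHAIN had 20.6 to 76.6 CPM in HL and 2.51 to 7.67 in HM, and 25.2 to 117 in CL and 4.45 to 14.2 in CM, again without overlap. The log2 fold change was 3.39 in HL vs. HM (SE 0.303, adjusted p = 7.31e-07) and 3.39 in CL vs. CM (SE 0.356, adjusted p = 2.11e-06). JCHAIN made up 55.0% to 80.1% of the summed FPKM of the 10 members in HL and 66.2% to 89.0% in CL, against 9.73% to 25.5% in HM and 28.9% to 54.5% in CM.

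PAX5 and CD79B, which mark B cells before they become plasma cells, also had higher means in the liver. PAX5 was read from 66 fragments in HL against 15 in HM, and from 73 in CL against 16 in CM, a ratio of means of 6.23 under linseed oil and 7.57 under the control diet. On the log2(FPKM + 1) scale its differences were 0.13 and 0.17 and did not pass (adjusted p = 0.212 and 0.0727), while voom gave 2.65 (adjusted p = 0.00743) and 2.76 (adjusted p = 0.000187). PAX5 was below the voom filter in both comparisons. CD79B had ratios of 3.26 for HL over HM and 1.97 for CL over CM, with adjusted p values of 0.0222 and 0.179 in limma. Scaled to total fragments, these adjusted p values were 0.188 and 0.962.

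PTPRC was higher in the liver in the values as deposited, by 1.05 on the log2 scale in HL vs. HM (SE 0.219, adjusted p = 0.00108) and by 0.70 in CL vs. CM (SE 0.202, adjusted p = 0.00809). In both comparisons every liver library exceeded every muscle library. The call in HL vs. HM sat at the fold threshold and was lost without HL 5, HM 1 or HM 4 (log2 fold change 0.91 to 0.96), with an adjusted p of at most 0.00382. IKZF1 differed by 0.67 in HL vs. HM (SE 0.167, adjusted p = 0.00352) and 0.35 in CL vs. CM (SE 0.186, adjusted p = 0.116) as deposited. Scaled to total fragments, its adjusted p in HL vs. HM was 0.0715.

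For CD3E and CD3D the liver excess was larger under the control diet, in which their muscle levels were lower. CD3E averaged 1.39 FPKM in CL and 0.262 FPKM in CM without overlap (log2 fold change 0.91, SE 0.154, adjusted p = 0.000165), and 1.80 FPKM in HL and 0.991 FPKM in HM with overlap (log2 fold change 0.50, SE 0.191, adjusted p = 0.0366). CD3D averaged 5.01 FPKM in CL and 1.18 FPKM in CM (log2 fold change 1.42, SE 0.292, adjusted p = 0.000803), and 5.42 FPKM in HL and 3.40 FPKM in HM (log2 fold change 0.69, SE 0.309, adjusted p = 0.0692). The test of that difference is the interaction above, which neither gene passed. CD4 was higher in the liver by 0.34 in HL vs. HM (adjusted p = 0.0388) and 0.28 in CL vs. CM (adjusted p = 0.0150), and ZAP70 by 0.29 (adjusted p = 0.0300) and 0.25 (adjusted p = 0.0249). LCK had adjusted p values of 0.0671 and 0.1004. These values use the deposited scaling. Scaled to total fragments, neither CD4 nor ZAP70 had an adjusted p below 0.05 in either comparison, and CD3E did not in HL vs. HM.

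**Figure D3:**
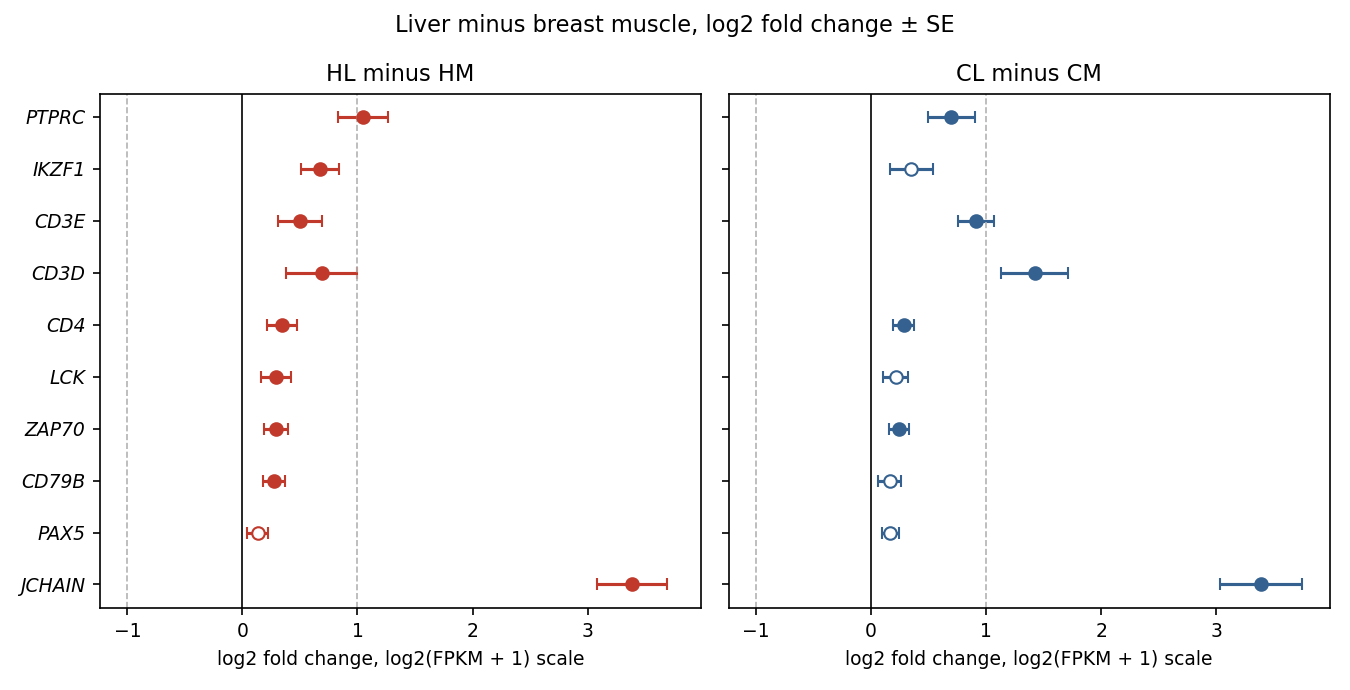
Log2 fold change between the tissues on the log2(FPKM + 1) scale for each member, HL minus HM on the left and CL minus CM on the right, with the standard error from limma as bars. Filled points have an unadjusted p below 0.05 and dashed lines mark a log2 fold change of 1 and -1. All 20 points lie above 0 with the deposited scaling (IKZF1 in CL minus CM is -0.033 with libraries scaled to total fragments), and JCHAIN lies at 3.39 in both panels.

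Within a diet group the members did not all vary together from duck to duck. After the group means of log2(FPKM + 1) were subtracted, the 45 pairs of members had a median Pearson r of 0.249 in the liver (range -0.487 to 0.928) and 0.264 in muscle (range -0.669 to 0.866), each over 10 libraries. These values are descriptions, since the points of a pair share their library, its depth and its cell make-up. In the liver PTPRC went with IKZF1 (r = 0.928, Spearman rho = 0.903) and with PAX5 (r = 0.905, rho = 0.830). CD3E and CD3D went together in both tissues (r = 0.772, rho = 0.806 in the liver, r = 0.866, rho = 0.879 in muscle). JCHAIN reached at most r = 0.400 with any other member in the liver, with IKZF1, but without the 2 libraries farthest from the JCHAIN median r was 0.864 with IKZF1 and 0.833 with PAX5 (0.204 over all 10). In muscle its highest r over all 10 libraries was 0.689, with PTPRC, and 0.603 without the 2 libraries farthest from the PTPRC median. Other muscle pairs of JCHAIN moved both ways. Without the 2 libraries farthest from the median of the partner, r rose from 0.144 to 0.850 with CD3D and from 0.582 to 0.819 with CD3E. Without the 2 farthest from the JCHAIN median, it fell from 0.635 to 0.177 with LCK and from 0.491 to 0.105 with IKZF1.

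Single libraries carried much of this variation. CL 3 was the lowest of the 5 CL libraries for 8 of the 10 members (not for LCK and ZAP70), and HM 1 the lowest of the 5 HM libraries for 8 (not for CD79B and ZAP70). HL 5 was the highest HL library for PTPRC, CD3E, CD3D, PAX5 and IKZF1, and CM 4 the highest CM library for 6 members, JCHAIN with 5.37 FPKM among them.

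**Figure D4:**
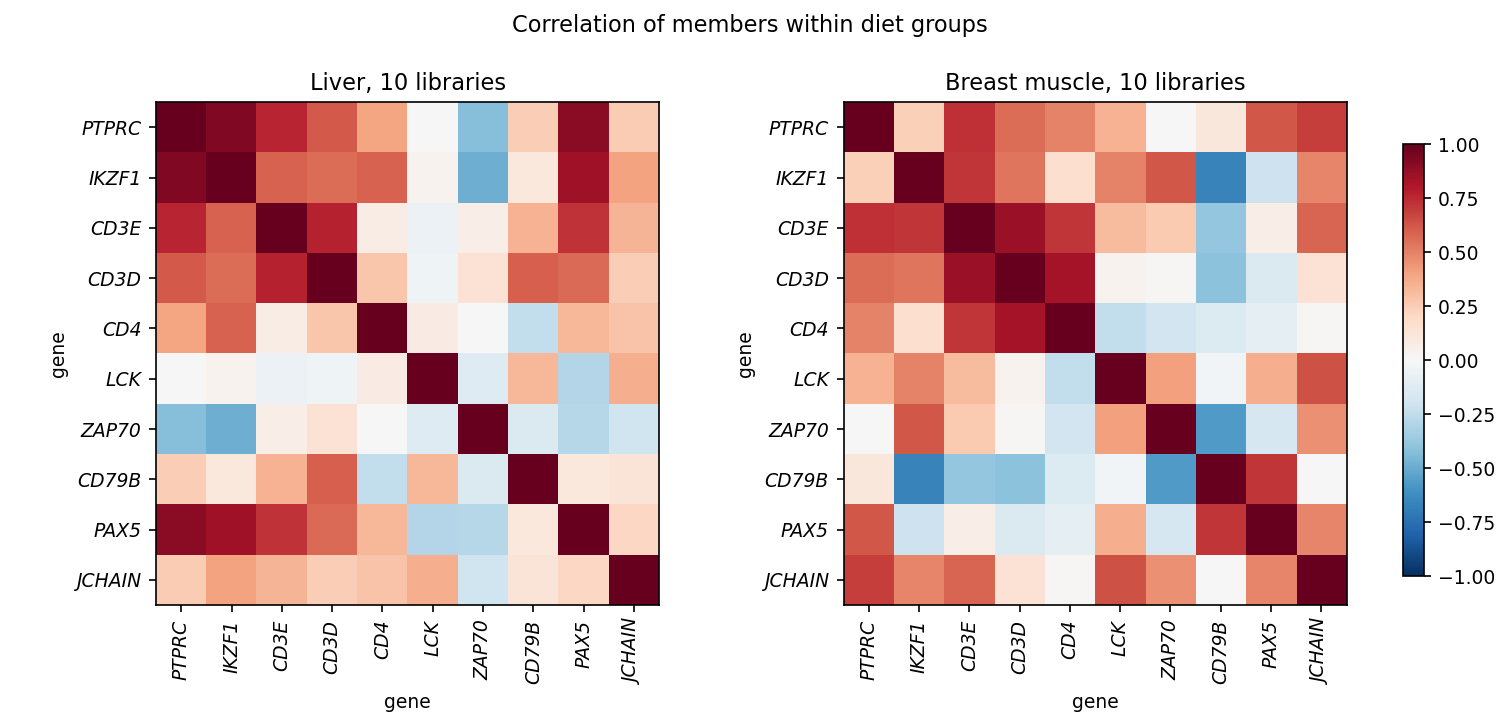
Pearson correlation between members of log2(FPKM + 1) after subtraction of the diet group means, over 10 liver libraries (left) and 10 muscle libraries (right), red for positive and blue for negative values. PTPRC, IKZF1, CD3E and CD3D form a red block in the liver (r = 0.560 to 0.928). PAX5, set apart from them, is red with PTPRC (0.905) and IKZF1 (0.851) there. CD3E with CD3D is red in both tissues.

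The genes most like a member were those with the highest r over the same 10 libraries, among at least 8569 named genes of a tissue with at least 1 FPKM in at least 5 libraries. None of them was on the lymphocyte lists used here. They were picked for the highest r among so many genes over only 10 libraries, and such a choice by itself gives high values. Whether any r exceeds that level was not tested. For PTPRC they were RNF4 (r = 0.977) and RABGEF1 (0.968) in the liver, and ATG5 (0.945), SMIM11A (0.930) and CAMLG (0.914) in muscle. For CD3E they were ABAT (0.948), LACTB2 (0.936) and RELL1 (0.925) in the liver, and METTL6 (0.956), RMND1 (0.945) and SRGN (0.945), the last a proteoglycan of leukocyte granules, in muscle. For JCHAIN they were NOXO1 (0.922), GOLPH3L (0.876) and TIMM44 (0.872) in the liver, and GFOD2 (0.897), YDJC (0.895) and UBE2W (0.893) in muscle. Without the 2 libraries farthest from the JCHAIN median, GOLPH3L fell to 0.623, YDJC to 0.679 and UBE2W to 0.787. For CD79B they were PHOSPHO2 (0.917), SYNM (0.879) and CLOCK (0.865) in the liver, which fell to 0.616, 0.527 and 0.547 without the 2 libraries farthest from the CD79B median, and HS6ST2 (0.925), HDAC10 (0.911) and PCYT1A (0.902) in muscle.

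Wider lists of the same cells were read in the same fits, beside all genes tested. Of 43 further T cell genes 35 were matched and 9 passed the filter in the liver, and of 33 further B cell and plasma cell genes 26 were matched and 10 passed. In HL vs. CL 0 of either list were called. At an unadjusted p below 0.05, 3 of the 9 T cell genes were higher in HL and 1 lower, against 6.92% and 5.41% of all genes, with a median log2 fold change of 0.32 where all genes had -0.03. Of the 10 B cell genes 2 were higher and 0 lower, with a median of 0.11. Among the genes shared by leukocytes, 8 of 15 were higher and 0 lower at an unadjusted p below 0.05 with a median of 0.47, against the same shares of all genes, and 0 of the 15 were called. In HM vs. CM only 4 of the 35 matched T cell genes and 10 of the 26 B cell genes passed the filter and were tested. Of these, 0 T cell and 0 B cell genes reached an unadjusted p below 0.05, with medians of 0.10 and -0.18 where all genes had 0.00. Of 11 genes shared by leukocytes 1 did (S1PR1, lower in HM). The plasma cell receptor TNFRSF17, which the study names as upregulated in breast muscle, was below the filter (mean 0.588 FPKM in HM) and was not tested. Of the T cell genes tested in muscle, CD3E and CD3D thus had an unadjusted p below 0.05. The members CD4, LCK and ZAP70 did not (unadjusted limma p of 0.300, 0.3965 and 0.302), and none of the 4 further genes did. CD3E, CD4, LCK and ZAP70 were themselves below the filter and were fitted as members. Further T cell genes below the filter were not tested, so these 4 cannot show whether other T cell genes changed.

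Between the tissues, genes of the wider lists were called in both directions, where 20.4% of all genes were called higher and 21.9% lower in CL than in CM, and 19.8% higher and 20.4% lower in HL than in HM. A gene could pass the filter through 1 tissue alone, as TCF7 and TNFRSF17 did through the liver and GATA3 and EBF1 through muscle. The direction of such calls follows in part from the filter. Of the 35 matched T cell genes 7 were tested in CL vs. CM and 9 in HL vs. HM. In CL vs. CM 2 of 7 T cell genes were called higher in the liver, the T cell factors TCF7 (5.91 FPKM in CL, 0.102 FPKM in CM) and TBX21 (11.0 FPKM in CL, 1.23 FPKM in CM), and 2 were called lower, the adaptor SKAP1 (1.31 FPKM in CL, 14.7 FPKM in CM) and the factor GATA3 (0.289 FPKM in CL, 8.91 FPKM in CM). In HL vs. HM 3 of 9 were called higher in the liver (TCF7, TBX21 and FYB1) and 2 lower (SKAP1 and GATA3). Of 11 B cell and plasma cell genes 5 were called higher in CL than in CM and 3 lower, which became 1 higher and 4 lower with libraries scaled to total fragments. The largest 3 higher were PIK3AP1 (log2 fold change 2.14), BLNK (1.27), the linker of the B cell receptor, and TNFRSF17 (1.20), the plasma cell receptor BCMA, with 1.83 FPKM in CL and 0.226 FPKM in CM. The 3 lower were RASGRP3 (-2.76), EBF1 (-2.64) and BCL6 (-2.22), and the same 3 were called lower in HL vs. HM, where PIK3AP1 (1.90), DERL3 (1.33) and IRF8 (1.22) led the 4 called higher (1 higher and 3 lower with libraries scaled to total fragments). Several of these, such as EBF1 and BCL6, are also expressed outside lymphocytes. Of the genes shared by leukocytes 5 of 11 were called lower in CL than in CM, led by S1PR1 (-3.25), LAPTM5 (-2.10) and CXCR4 (-2.08), and 1 higher, PTPN6 (1.60). In HL vs. HM 3 of 13 were called lower, S1PR1, CXCR4 and ARHGDIB, and 2 higher, PTPN6 and ITGB2, with a median log2 fold change of -0.06.

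Other cell types of the 2 tissues differed as well. The summed level of endothelial markers was 115 to 152 FPKM in HL and 407 to 797 FPKM in HM, against 31.1 to 94.2 FPKM in CL and 547 to 847 FPKM in CM, and S1PR1 and CXCR4 are also expressed by endothelial cells. The summed level of macrophage markers was 495 to 1453 FPKM in HL and 195 to 411 FPKM in HM, and 427 to 668 FPKM in CL and 211 to 307 FPKM in CM. The part of these cells in the tissue differences was not tested. The labelled tissues matched their markers, since the 10 hepatocyte markers and the 6 matched skeletal muscle markers were all called in their own tissue under both diets.

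**Figure D5:**
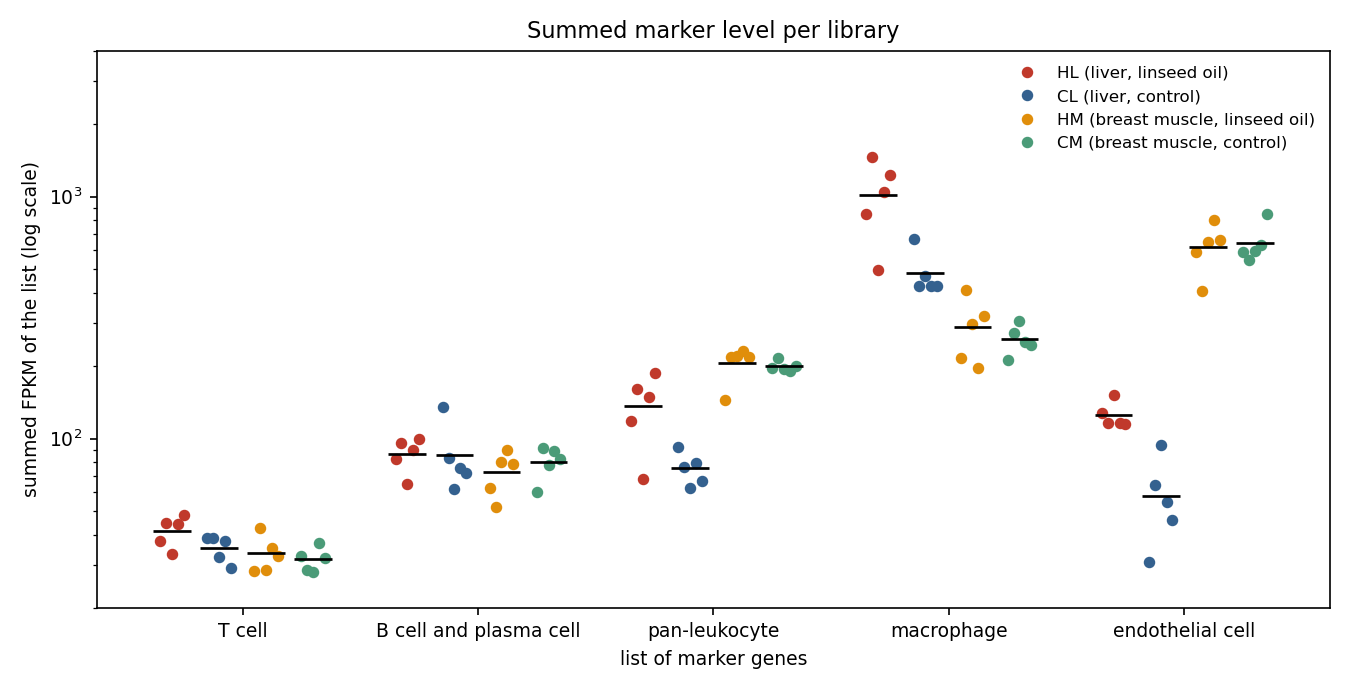
Summed FPKM of 5 lists of marker genes in each library on a log axis, with HL, CL, HM and CM side by side and a bar at the group mean of 5 libraries. The T cell and B cell sums overlap between all 4 groups, the macrophage sums are highest in HL (495 to 1453 FPKM) and the endothelial sums do not overlap between HL (115 to 152 FPKM) and CL (31.1 to 94.2 FPKM).

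The depth was 15417718 to 16705165 fragments per liver library and 11852903 to 13432987 per muscle library, as recovered from the table. No 2 libraries of a group agreed within sampling noise, so each counted as 1 replicate. Within a group the p values measure the spread between libraries of different ducks, 5 in a group. By the study's count of 10 ducks for 20 libraries, the liver and muscle libraries of a diet share ducks. The tissue comparisons and the interaction treat these libraries as independent, since the pairs are not given.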

How the data were processed

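The authors prepared poly-A RNA libraries, mapped clean reads with Hisat2 2.0.5 to the duck ZJU1.0 assembly and deposited FPKM values of 25117 genes in 20 libraries. The counting tool and strand are not given in the sources used here. FPKM times gene length came in whole steps within each library (tolerance 0.01), which gave back the fragments, and the values were already scaled by median of ratios and not by library totals. Of the gene IDs, 20868 matched a RefSeq gene table, used for names only.

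Groups were compared with limma 3.58.1 (R 4.3.3; lmFit, eBayes with trend) on log2(FPKM + 1), over genes with at least 1 FPKM in at least 5 fitted libraries plus the members, two-sided, with Benjamini-Hochberg adjustment over all genes of the fit. The fit was tested on simulated data. Named genes were the members, at most 3 called genes per direction of each wider list, and the 3 most alike genes per tissue of PTPRC, CD3E, CD79B and JCHAIN, of which 1 is not reported here. MRC1, CDH5 and STAB2 follow the same rule for other cell types. The members and lists were chosen with earlier results of these data known. The alternatives were other pseudocounts, filters and scalings, 1 fit of all libraries, robust eBayes, a replicate block, voom on fragments (at least 10 in at least 5 libraries, plus the members), no fold threshold and each library left out, and scaling to total fragments, which was chosen after seeing the data.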

Additional observations from a re-analysis of the deposited data

Results flagged for a closer look

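In 7 of the 40 member and group combinations, 1 library lay far from the other 4 by Dixon's ratio (gap to the nearest library over the group's range, critical value 0.710 for 5 libraries). Chance alone flags about 1 in 20 such groups when the values are normal and the groups independent. The raw FPKM values need not be normal and the members share libraries, so the 7 were not tested against that rate. CD3E was 2.95 FPKM in HL 5, with the next HL library at 1.67 FPKM. CD3D was 1.58 FPKM in CL 3, with the next at 5.31 FPKM. CD3D was 7.88 FPKM in HM 2, with the next at 3.16 FPKM. CD4 was 0.818 FPKM in HL 2, with the next at 0.448 FPKM. JCHAIN was 5.37 FPKM in CM 4, with the next at 2.56 FPKM. ZAP70 was 0.114 FPKM in CL 1, read from 3 fragments, with the next at 0.309 FPKM. PAX5 was 0.283 FPKM in CL 1, with the next at 0.131 FPKM.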

How the results depend on the processing

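In HL vs. CL, HM vs. CM and the interaction, 0 members were called under every alternative. In HL vs. HM 2 members were called, 5 with a pseudocount of 0.1, 7 with voom, 7 without the fold threshold and 1 to 2 with 1 library left out. In CL vs. CM 2 were called, 6 with a pseudocount of 0.1, 4 with quantile normalization, 8 with voom, 6 without the fold threshold and 2 to 3 with 1 library left out. With a pseudocount of 0.1, 2339 of 10455 genes were called higher in HL than in HM. For CL over CM there were 2384 of 10536. Quantile normalization called 4386 genes between CL and CM, in either direction. Signs turned mostly for log2 fold changes near 0, but also for CD3D in HL vs. CL (0.16, and -0.12 without CL 3). IKZF1 in CL vs. CM went from 0.35 to -0.033 with libraries scaled to total fragments. With quantile normalization CD79B became -0.027 in HL vs. CL and 0.0076 in HM vs. CM, and PAX5 0.046 in HM vs. CM. With 1 library left out the log2 fold change in HL vs. CL ranged over -0.12 to 0.28 for CD3D and -0.086 to 0.0043 for PAX5. In HM vs. CM it ranged over -0.077 to 0.0089 for CD79B, -0.011 to 0.0065 for PAX5 and -0.0021 to 0.12 for IKZF1. The cause was not tested. Over all genes, the 12 called in HL vs. CL became 0 with a replicate block, 3 without a filter, 5 with a pseudocount of 0.1 or a mean filter, 21 without the fold threshold, 30 with voom, 83 with 1 fit of all libraries and 3 to 99 with 1 library left out (60 without HL 3, 99 without CL 1). The 0 in HM vs. CM became 1 with the block and 3 with 1 fit of all libraries, and the 1 of the interaction 0 to 50 (50 without HL 3). Without the fold threshold, HL vs. HM gave 6670 genes and not 4203, and CL vs. CM 7029 and not 4456. Voom called more genes of the wider lists, 17 T cell and 10 leukocyte genes in HL vs. HM (5 and 5 in limma on FPKM) and 14 and 11 in CL vs. CM (4 and 6). These counts take both directions. Voom also called more of all genes, 48.7% between the tissues under linseed oil (40.2% in limma on FPKM) and 51.2% under the control diet (42.3%). At most 35 T cell and 19 leukocyte genes were matched, and whether their counts exceed these shares was not tested. Leukocyte genes called in HL vs. CL became 2 with 1 fit of all libraries or without HL 3 and 1 without CL 1. With libraries scaled to total fragments, chosen after seeing the data, 1 member (JCHAIN) was called in HL vs. HM, 1 in CL vs. CM, and IKZF1 became -0.033 in CL vs. CM. Of all called genes 27.6% were then higher in HL than in HM (49.2% as deposited) and 21.8% in CL than in CM (48.1%), and the median log2 fold change of all genes was 0.12 in HL vs. CL (-0.03 as deposited), where 25 genes were called and 2 in the interaction. Equal library numbers were not taken as pairs, since the sources do not say so. Between the liver and muscle libraries of a diet, r of equal numbers ranged over -0.186 (HL 3 and HM 3) to 0.338 (HL 5 and HM 5). With equal numbers across the diets included, which cannot be the same duck, it ranged over -0.2 to 0.376. It was then over 0.1 in 8 of 20 and the best match in 8 of 20. Whether equal numbers are pairs is not settled by these values. The replicate block changed no member count. Members under 1 FPKM are limited by depth.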

Other observations

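Antigen receptor loci were read by the descriptions in the table, after their values were seen. Of 40 such entries 6 had at least 1 FPKM in at least 5 libraries. LOC119714139, LOC101805253, LOC106020188 and LOC119718508 reached this only through their liver libraries. Their higher level in the liver therefore follows in part from the filter. LOC119718505, entered as a constant region but matched to the V-1 region of an Ig lambda chain, had 56.1 to 243 FPKM in HL and 76.9 to 633 FPKM in CL, against 1.33 to 8.83 FPKM in HM and 3.87 to 20.9 FPKM in CM. Its log2 fold change was 4.16 in HL vs. HM, with an adjusted limma p of 5.25e-06, 4.44 in CL vs. CM, with an adjusted p of 6.59e-06 (with libraries scaled to total fragments it was 3.52 in HL vs. HM, and called in both), and -0.91 in HL vs. CL, with an adjusted p of 0.543. LOC119714139, a V segment similar to an Ig heavy chain, had 2.30 to 11.6 FPKM in HL and 6.67 to 13.9 FPKM in CL, against 0 to 0.564 FPKM in HM and 0.0468 to 0.510 FPKM in CM.

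LOC101804340, described as a T cell receptor alpha chain but matched to a delta chain constant region, averaged 8.99 FPKM in HL and 6.47 FPKM in CL, against 2.43 FPKM in HM and 1.17 FPKM in CM. LOC101805253, similar to a T cell receptor gamma chain constant region, averaged 5.92 FPKM in HL and 2.95 FPKM in CL (log2 fold change 0.74, with an unadjusted limma p of 0.0170 and an adjusted p of 0.278), and 1.67 FPKM in HM and 0.473 FPKM in CM. Both were called higher in the liver than in muscle under each diet in the values as deposited, but LOC101805253 was kept only through its liver values. With libraries scaled to total fragments LOC101804340 was still called in each, and LOC101805253 was not, at 0.89 for HL over HM and 0.93 for CL over CM. LOC106020188, described as an alpha chain, averaged 1.83 FPKM in HL and 0.614 FPKM in CL (adjusted p = 0.255), and LOC119718508, similar to an Ig lambda chain, was at 0 in all 10 muscle libraries.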
